A study of Mus musculus with 2 samples.

Results

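The genes described here carry a transcript annotated as misc_RNA, the class that holds 7SL, 7SK, Y and vault RNAs, or as ribozyme, the class of the RNA subunits of RNase P and RNase MRP. They were chosen by level: of 588 genes with such a transcript among 55536 annotated genes, the 62 with a mean of 1 TPM or more over both libraries of the gene table were taken. TPM, a length-corrected transcript abundance, divides reads by transcript length and scales every library to the same sum. Because the level chose the genes, it is given as a description and was not tested. Of the 62 genes, 58 were misc_RNA and 4 were ribozyme genes, while 487 of the 588 were at 0 TPM in both libraries and 39 lay above 0 with a mean under 1. Of the 588, 60 are 100 bases long or shorter and have an effective length of 0, so the gene table could give them no TPM, and all 60 are among the 487. Just inside the threshold were Gm23583 at 1.025, Gm23553 at 1.045 and Gm27980 at 1.145 TPM, and just outside were Gm27403 and Gm23094 at 0.995 and Gm22533 at 0.91 TPM.

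The tissue was a layer of hippocampus, taken from male adults of the strain B6CASTF1/J, an F1 cross of B6 and CAST, at 8 to 10 months of age and with no treatment that the labels name. There were 2 animals and 1 library per animal, replicate 1 from animal 2 and replicate 2 from animal 4, each made from 300 ng of total RNA depleted of ribosomal RNA, with the RNA strand kept and ERCC spike-ins (synthetic control RNAs) added. Both libraries form 1 group, so no conditions were compared. Each library has a gene table of expected counts and TPM and a second table of estimated counts and TPM per transcript, made by another program from the same reads and summed here per gene.

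Most of these small noncoding RNAs are made by RNA polymerase III and act inside protein complexes. The 7SL RNA is the scaffold of the signal recognition particle, which binds ribosomes making secreted and membrane proteins and brings them to the endoplasmic reticulum. The 7SK RNA holds the kinase P-TEFb in an inactive particle and so restrains elongation by RNA polymerase II. RNase P trims the leaders of tRNA precursors, RNase MRP cuts ribosomal RNA precursors, Y RNAs bind the Ro60 protein, and Terc is the template RNA of telomerase.

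The 2 libraries held 23458117 and 29584307 expected counts. The 9 hippocampal subfield markers were all above 1 TPM in both, from Mpped1 at 100 and 92.3 TPM to Amigo2 at 10.3 and 10.7 TPM, and they summed to 423.11 TPM in replicate 1 and 403.61 TPM in replicate 2. Markers of the choroid plexus, the epithelium beside the hippocampus that makes cerebrospinal fluid, summed to 17.86 TPM in replicate 1 and 1791.53 TPM in replicate 2. Of these 9 markers, 8 were higher in replicate 2 past the threshold of the test described below, from Ttr, the transthyretin gene, at 8.68 and 1702.74 TPM down to Slc4a5 at 0.21 and 6.14 TPM. The other called markers were Folr1, Clic6, Kl, Kcnj13, Aqp1 and Sostdc1, and Otx2 missed the threshold at 0.80 and 3.50 TPM (edgeR adjusted p = 0.0567). None of the 9 was at 0 in either library. The libraries therefore differed in choroid plexus RNA, and its part in any difference of the small RNAs was not tested. In whole tissue, fewer cells of a type and less RNA per cell cannot be told apart.

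For 7SL, the models of Rn7s1 and Rn7s2, both on chromosome 12, hold the same 300 bases throughout. Rn7s6, on chromosome 6, is a 291-base model that shares an unbroken run of 173 bases with Rn7s1. An alignment gave 98.6% identity over 214 bases, and 143 of the 261 words of 31 bases in Rn7s6 also occur in Rn7s1.

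The sequences of 7SK, of the RNase P and RNase MRP RNAs and of near copies that share sequence with them are shown from the GENCODE M21 transcript models on mm10, because these RNAs lead the levels after 7SL. For 7SK, Rn7sk lies at chr9:78175303-78175633 on the minus strand and is 331 bases long, of which the first 300 are shown. Gm26315, a 321-base gene in an intron of Celf2 at chr2:7076094-7076414 on the minus strand, is shown for the same span. Capitals mark 235 unbroken shared bases.
Rn7sk: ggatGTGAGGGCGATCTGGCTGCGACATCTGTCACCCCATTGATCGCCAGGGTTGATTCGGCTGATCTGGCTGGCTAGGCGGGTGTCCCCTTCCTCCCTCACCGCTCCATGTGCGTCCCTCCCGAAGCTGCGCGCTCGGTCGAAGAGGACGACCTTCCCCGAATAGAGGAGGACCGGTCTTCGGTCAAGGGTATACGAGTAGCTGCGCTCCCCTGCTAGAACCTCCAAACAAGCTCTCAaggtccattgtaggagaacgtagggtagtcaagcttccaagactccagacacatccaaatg
Gm26315: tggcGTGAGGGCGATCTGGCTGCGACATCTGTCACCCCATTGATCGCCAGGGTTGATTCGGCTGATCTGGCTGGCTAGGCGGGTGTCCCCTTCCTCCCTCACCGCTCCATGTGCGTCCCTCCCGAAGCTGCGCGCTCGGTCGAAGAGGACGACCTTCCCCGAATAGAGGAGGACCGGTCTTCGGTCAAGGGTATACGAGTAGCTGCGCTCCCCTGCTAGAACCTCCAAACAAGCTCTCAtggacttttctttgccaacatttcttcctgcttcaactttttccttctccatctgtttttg
The genes match over the front of 7SK and differ after it. The alignment spans 238 bases with 1 mismatch (99.6% identity).

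For RNase P, Rpph1 lies at chr14:50807449-50807767 on the minus strand and is 319 bases long, of which the first 300 are shown. Rprl3, named as an RNase P RNA-like gene, lies at chr8:3803069-3803358 on the minus strand. Capitals mark their longest unbroken shared run, 37 bases.
Rpph1: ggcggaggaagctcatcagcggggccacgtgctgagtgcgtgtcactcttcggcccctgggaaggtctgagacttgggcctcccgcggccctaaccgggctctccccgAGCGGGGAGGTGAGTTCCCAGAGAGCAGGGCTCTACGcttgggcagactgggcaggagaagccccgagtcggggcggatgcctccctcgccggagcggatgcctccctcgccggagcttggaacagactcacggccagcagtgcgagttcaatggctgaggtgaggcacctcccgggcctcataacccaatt
Rprl3: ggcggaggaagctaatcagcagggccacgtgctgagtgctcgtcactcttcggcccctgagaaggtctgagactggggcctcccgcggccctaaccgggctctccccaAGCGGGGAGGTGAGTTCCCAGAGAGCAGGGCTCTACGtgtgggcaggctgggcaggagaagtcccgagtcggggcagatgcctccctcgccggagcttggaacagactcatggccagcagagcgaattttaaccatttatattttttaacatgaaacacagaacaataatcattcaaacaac
These 2 genes are less alike than the 7SL and 7SK pairs, with 86.0% identity over 257 aligned bases. The alignment holds 15 mismatches and 1 gap, and sets bases 1 to 257 of Rpph1 against 1 to 236 of Rprl3. Bases in the gap count against the identity. They share only 13 of the 260 words of 31 bases in Rprl3.

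Rmrp, the RNA of RNase MRP, is annotated as 2 nested genes. The ribozyme model of 271 bases lies at chr4:43492788-43493058 on the minus strand, whole inside a lincRNA model of 281 bases at chr4:43492783-43493063. The longer model is shown, and capitals mark the 5 bases at each end that lie outside the shorter one.
Rmrp: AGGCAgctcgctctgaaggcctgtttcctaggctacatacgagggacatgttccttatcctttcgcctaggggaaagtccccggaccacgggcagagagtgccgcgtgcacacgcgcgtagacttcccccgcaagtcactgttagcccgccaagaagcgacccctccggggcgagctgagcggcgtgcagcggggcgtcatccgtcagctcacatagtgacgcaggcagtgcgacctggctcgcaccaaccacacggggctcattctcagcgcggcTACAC

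7SL led all of these genes by a wide margin. Rn7s1 and Rn7s2 were each deposited with 123261 TPM in replicate 1 and 134334 TPM in replicate 2, and with 347643 and 511031 expected counts. Because their sequences are identical, the equal values are a division of shared reads, and only the sum of the pair is a measurement. The pair summed to 246523 and 268669 TPM, a mean of 257596 ± 15660 TPM (SD, n = 2), which was 24.7% and 26.9% of all TPM. The second table placed each gene of the pair higher, at 150329 and 166227 TPM, from fewer counts (228470 and 339977).

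7SK was next. Rn7sk had 30518 TPM in replicate 1 and 30161 TPM in replicate 2, from 99413 and 132522 expected counts, a mean of 30340 ± 252 TPM (SD, n = 2). In the second table it had 42795 and 42496 TPM. The 2 libraries were thus closer to each other than the 2 tables were. The summed TPM of the 7SL pair was 8.08 times that of Rn7sk in replicate 1 and 8.91 times in replicate 2. In the second table the same ratio was 7.03 and 7.82.

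Rpph1, the RNase P RNA, had 5630 TPM in replicate 1 and 5159 TPM in replicate 2 (5394 ± 332, SD, n = 2), against 6438 and 5891 TPM in the second table. Its model overlaps the end of Ccnb1ip1 on the same strand. Ccnb1ip1 had 0 and 5 expected counts, so nearly all reads of the overlap were placed on Rpph1.

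Rprl3 had 681 TPM in replicate 1 and 654 TPM in replicate 2 (668 ± 19.3, SD, n = 2), from 1825 and 2363 expected counts. Both libraries of the second table listed it at 0. Rpph1 exceeded Rprl3 8.26-fold in replicate 1 and 7.89-fold in replicate 2 of the gene table. Its relatives Rprl1 and Rprl2 were at 0 counts in the gene table, and Rprl2 had 4 and 1 estimated counts in the second. Rprl3 therefore had reads by one program only, and its level is uncertain.

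The ribozyme model of Rmrp had 1456 TPM in replicate 1 and 1148 TPM in replicate 2 (1302 ± 218, SD, n = 2). The lincRNA model around it had 1748 and 2247 TPM. The second table gave the ribozyme model 0 counts and the lincRNA model 5337 and 7762 counts (3986 and 4308 TPM). Summed over both models, the gene table gave replicate 1 a count of 7974 and replicate 2 a count of 11468. In TPM the sums were 3205 and 3394. The sum of counts does not depend on how reads were divided between the models. In TPM the ribozyme model was higher in replicate 1, and the lincRNA model and the sum were higher in replicate 2.

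**Figure D1:**
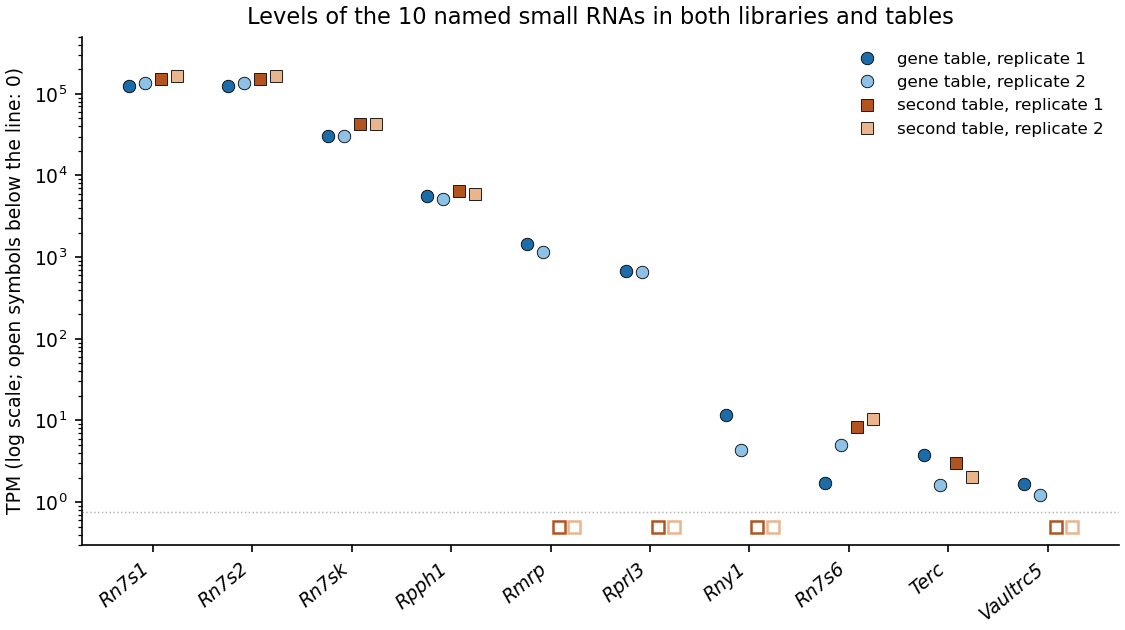
TPM on a log scale of the 10 named small RNAs in replicates 1 and 2 of the gene table (circles) and of the second table (squares), 1 point per library, with values of 0 drawn as open symbols below the dotted line. The order from 7SL through 7SK to Rpph1 is the same in all 4 sets of points. Rmrp is drawn by its ribozyme model alone, and this model, Rprl3, Rny1 and Vaultrc5 were at 0 in the second table.

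The remaining named small RNAs rested on few reads. Rny1, a Y RNA of 112 bases at chr6:47788069-47788180 on the minus strand, had 2 expected counts in replicate 1 and 1 in replicate 2. Its neighbour Rny3, of 102 bases, at chr6:47781624-47781725 on the plus strand, had 0 in both libraries and is no member. Both are shown because they are the Y RNAs the label of the class refers to, with capitals on the 12 bases that are their longest shared run.
Rny1: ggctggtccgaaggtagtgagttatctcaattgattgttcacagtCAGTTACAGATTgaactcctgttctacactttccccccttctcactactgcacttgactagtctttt
Rny3: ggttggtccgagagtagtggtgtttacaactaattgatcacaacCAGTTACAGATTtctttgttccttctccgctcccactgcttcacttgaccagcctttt
Every member with a single transcript had an effective length of its annotated length less 100 bases in the gene table, which left 12 bases for Rny1. Its 2 and 1 counts thereby became 11.8 and 4.38 TPM. Scaling counts by full annotated length instead gave 1.496 and 0.560 on the same scale. A count of 0, as for Rny3, allows up to 3 counts per library. Rny1 had reads, but its 2 and 1 counts were no more than that. The part of the short effective lengths of both Y RNAs in these low counts was not tested.

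Rn7s6 had 1.70 TPM in replicate 1 and 4.99 TPM in replicate 2, from 4.57 and 18.1 expected counts, values that are not whole because the program divides shared reads. The second table gave 8.39 and 10.4 TPM. Terc had 3.73 and 1.63 TPM from 17 and 10 counts, with 3.03 and 2.03 TPM in the second table. Vaultrc5, a vault RNA of 143 bases, had 1 count in each library, 1.65 and 1.22 TPM, and 0 in the second table. In the gene table, the 7SL pair exceeded each of these 3 genes in both libraries, with a smallest ratio of 53842.

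Over all 62 genes, the TPM summed to 285409 in replicate 1 and 306184 in replicate 2, or 28.5% and 30.6% of all TPM (29.6 ± 1.47%, SD, n = 2). The second table gave 35.0% and 38.1%. The same genes took a far smaller share of the reads, with 3.51% of expected counts for replicate 1 and 4.02% for replicate 2. In the second table the share of estimated counts was lower, 2.20% and 2.58%. For the expected counts of the gene table, the 95% Wilson bounds were 3.50 to 3.51% in replicate 1 and 4.01 to 4.02% in replicate 2. These bounds cover counting error alone, and the libraries differed by more than that. TPM divides counts by an effective length, which is short for these RNAs. With full annotated lengths the mean share of TPM was 23.5%.

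The level was concentrated in very few genes. The 7SL pair held 86.4% of the members' TPM in replicate 1 and 87.7% in replicate 2, and Rn7sk held 10.7% and 9.85%. The 6 highest genes held 99.8% and 99.9%, and the other 56 summed to 602 and 393 TPM. The median gene had a mean of 2.80 TPM. In reads, 28 members had fewer than 10 expected counts summed over both libraries, 23 had 10 to under 100, and 11 had 100 or more.

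Of the 62 members, 4 were long genes that meet the rule through a minor transcript. Nbr1, a protein-coding gene for an autophagy receptor, had 75.7 TPM in replicate 1 and 66.9 TPM in replicate 2. Rmst, a long noncoding RNA of the nervous system, had 23.9 and 23.0 TPM. Sox2ot, a long noncoding RNA that spans the Sox2 gene, had 24.5 and 16.2 TPM, and Zeb2os, antisense to Zeb2, had 2.81 and 2.75 TPM. Their misc_RNA transcripts are 60 to 67 bases long, have an effective length of 0 and took 0% of the gene's TPM in both libraries. The levels of these 4 genes are therefore those of their other transcripts, such as Nbr1-202 with 38.3% and 43.0% of the TPM of Nbr1.

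A further 19 members lay on the same strand of a long noncoding gene. Their 7 host genes were Miat, Neat1, Rmst, Sox2ot, Tug1, Pvt1 and Zeb2os, and 15 of the 19 are contained whole in a longer transcript of the host. The highest was Gm27627, in an exon of Miat at chr5:112217318-112217467 on the minus strand. Its 150 bases are shown because it had the largest level outside the named RNAs.
Gm27627: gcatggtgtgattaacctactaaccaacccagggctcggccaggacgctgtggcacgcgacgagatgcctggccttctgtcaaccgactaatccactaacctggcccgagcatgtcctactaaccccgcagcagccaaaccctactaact
Gm27627 had 149 TPM in replicate 1 and 73.2 TPM in replicate 2 from 105 and 69.6 expected counts, and 0 in the second table. Miat itself had 170 and 97.2 TPM from 15864 and 12458 counts. With full-length scaling Gm27627 had 58.5 and 29.1 in place of 149 and 73.2.

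Gm27998, also in an exon of Miat, differed the other way between the libraries, with 3.18 TPM in replicate 1 and 11.1 TPM in replicate 2. The counts of Gm27627 and Gm27998 summed to 117 in replicate 1 and 125 in replicate 2, which was 0.735% and 0.999% of the counts of Miat. In counts not scaled for library size, the sum differed less between the libraries than either gene did. As a share of the counts of Miat, the sum was higher in replicate 2.

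Gm27505 lies in an exon of Neat1, the scaffold RNA of nuclear paraspeckles. It had 48.9 TPM in replicate 1 and 48.3 TPM in replicate 2, above the 40.5 and 33.5 TPM of Neat1, although it rested on 6.90 and 9.19 expected counts against 2490 and 2702 for Neat1. Its effective length was 10 of 110 bases, and full-length scaling gave 5.25 and 5.24. Gm27582, in Rmst, had 38.6 and 39.1 TPM from 14.2 and 19.3 counts. The extreme case was Gm27404, in Zeb2os, whose 0.880 expected counts in replicate 1 became 20.9 TPM over an effective length of 3 bases, while replicate 2 was at 0. In the second table, 18 of the 19 members in noncoding hosts were at 0 in both libraries, the exception being RF01953 in Sox2ot.

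Another 24 members lay on the same strand of a protein-coding gene, 18 of them wholly in an intron and 6 partly in an exon. They had means of 1.02 to 7.67 TPM and a median of 7 expected counts summed over both libraries. The hosts had 118 to 22737 counts in replicate 1 and 172 to 22040 in replicate 2. The highest was Gm26407, in an intron of Impact, with 8.22 TPM in replicate 1 and 7.11 TPM in replicate 2. Of the unnamed single-transcript members, 5 lay outside other genes.

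Membership differed by strand, with genes that overlap others on both strands counted under the same strand. Some members so counted also lie opposite another gene, such as Gm27404 opposite Zeb2. Of the misc_RNA and ribozyme genes without an RNA name and with a single transcript (571 genes), 123 lie on the same strand as an overlapping protein-coding gene, and 24 of them (19.5%) were members, against 0 of 89 on the opposite strand. For noncoding hosts, 19 of 81 (23.5%) on the same strand were members, against 0 of 38 on the opposite strand. Outside other genes it was 5 of 240 (2.08%). A count in at least 1 library was found for 48 of 123 and 2 of 89 genes with coding hosts, and for 27 of 81 and 0 of 38 with noncoding hosts. Leaving out genes of 100 bases or less, the members were 24 of 109 (22.0%) against 0 of 85 for coding hosts, and 19 of 67 (28.4%) against 0 of 27 for noncoding hosts. Since the level chose the members, these shares are a description, and how much of the signal came from the host transcripts was not tested.

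**Figure D2:**
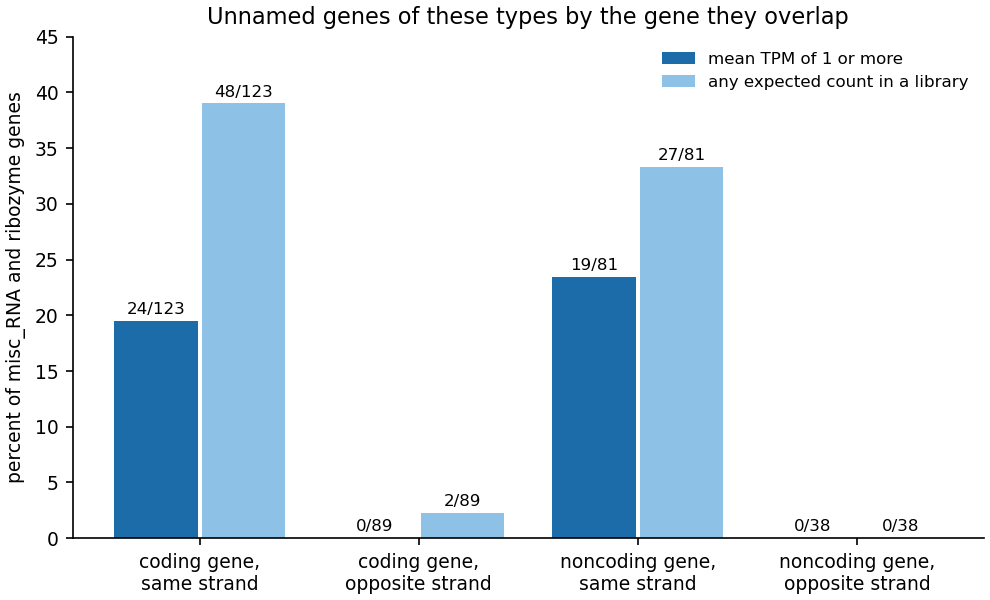
Percent of unnamed misc_RNA and ribozyme genes with a mean of 1 TPM or more (dark bars) and with any expected count in a library (light bars), by the type and strand of the gene they overlap; numbers above the bars give genes of all genes. Same-strand genes reached 19.5% and 23.5% by the TPM rule, and no gene with overlaps on the opposite strand alone did. Genes that overlap others on both strands are counted under the same strand.

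By sequence, 7 of the unnamed members matched Rn7sk over 50% or more of the shorter sequence at 75% identity or more. They were 7 of 87 genes of these types without an RNA name that did. Of all 588 genes 62 were members, but these include the named RNAs and the long genes. The shares are therefore not of like sets. Further unnamed members aligned to Rn7sk below these limits and are not counted. The 7 matches had an identity of 75.5 to 99.6%, and together they had 32 TPM in replicate 1 and 17.9 TPM in replicate 2. The closest were Gm26315 with 6.27 and 2.85 TPM, Gm24146 (97.5% identity) with 5.45 and 4.93 TPM, and Gm26035 (96.1%) with 2.46 and 2.53 TPM. Gm26461 matched Rn7s1 at 96.5% identity, 1 of 10 such genes, and had 2.62 and 2.49 TPM. The named RNA exceeded each of these members in both libraries, with a smallest ratio of 3031.

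Between the libraries, the abundant RNAs were close and the sparse ones scattered. The difference was tested with edgeR on expected counts over 16123 genes, with each gene set against the spread that genes of like level show between these 2 libraries. It compares the 2 libraries and not conditions, and a permutation of 2 animals could never give p under 0.05. Of all tested genes 0.806% passed (adjusted p under 0.05, Benjamini-Hochberg), and of 14 members with enough reads 0 passed. The unadjusted p from edgeR was under 0.05 for 778 of the 16123 tested genes and for 1 of the 14 members, Sox2ot. Its log2 ratio of replicate 1 over replicate 2 was 0.56 (edgeR adjusted p = 0.847, and 0.765 or more over the alternatives). The other 48 members were below the read minimum.

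The log2 ratios of replicate 1 over replicate 2 in scaled counts were -0.24 for each of the 7SL genes, -0.10 for Rn7sk, 0.01 for Rpph1, 0.23 for the ribozyme model of Rmrp, -0.06 for Rprl3 and 0.88 for Gm27627. With both models of Rmrp summed, a value added after seeing the data, the ratio turned to -0.21. The lowest among the tested members was Gm27998 at -1.74 (unadjusted p = 0.0538 from edgeR), and its adjusted p under a common dispersion, 0.0539, was the lowest of any tested member in that fit. Scaling by the spike-ins shifted the tested genes together, with a median shift to 0.23 on the same log2 scale. It put each 7SL gene at -0.01, Rn7sk at 0.13, Rpph1 at 0.24, the ribozyme model of Rmrp at 0.46 and Rprl3 at 0.17. Of these, Rn7sk and Rprl3 changed sign with the scaling, and the others kept theirs. Rpph1 lay at -0.03 without the filter on low counts and at -0.05 in the second table. The 14 tested members, with the 7SL pair counted as 2, had a median of -0.01, and all tested genes had a median of 0.00. A p that misses the threshold does not show that the libraries held equal amounts. The choroid plexus markers, by contrast, had a median log2 ratio of -4.49.

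In TPM, 31 of 62 members were 2-fold or more apart between the libraries, against 8.95% of the 16036 annotated genes with a mean of 1 TPM or more. The split followed read number. Of the 11 members with 100 or more summed counts 1 was that far apart, Gm27627, against 4.04% of all genes with such counts, and of the 51 members with fewer it was 30 (58.8%), against 40.04% of all genes with so few. Of the 31, 25 were higher in replicate 1 and 6 in replicate 2. The 53 members above 0 in both libraries had a median log2 TPM ratio of 0.43. It was 0.13 for all 15845 genes with a mean of 1 TPM or more and above 0 in both. The 2 sets were not matched for read number, and 1 count in each library gave Vaultrc5 a ratio of 0.44. Since the rule used these TPM values, the lean to replicate 1 is a description and was not tested.

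**Figure D3:**
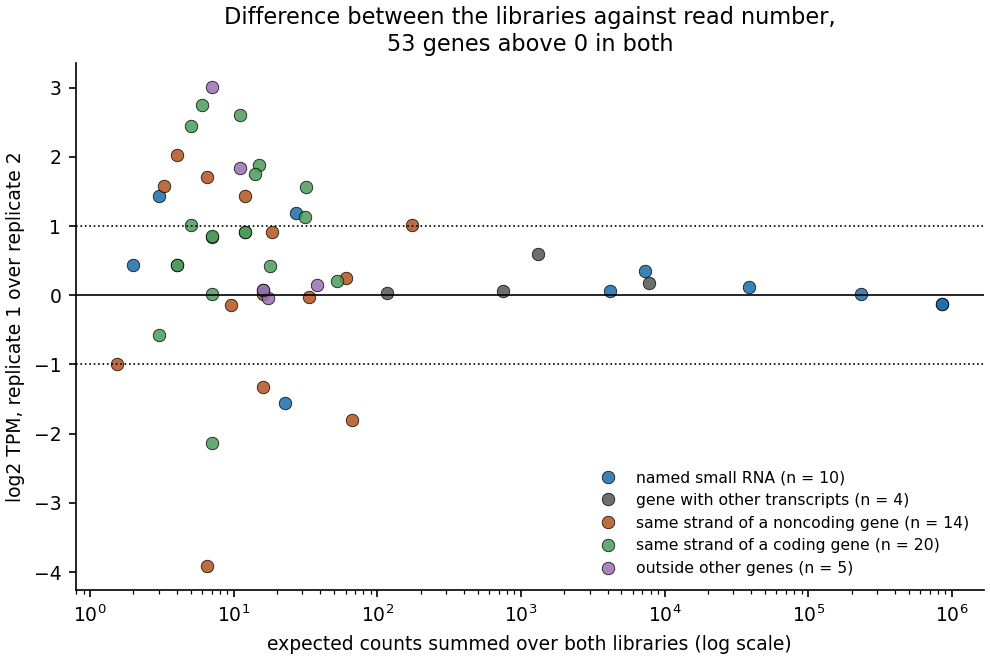
Log2 TPM of replicate 1 over replicate 2 against expected counts summed over both libraries (log scale) for the 53 members above 0 in both, 1 point per gene, coloured by group, with dotted lines at 2-fold. Points with 100 or more counts lie within 2-fold except Gm27627 at 1.02, and those with fewer counts spread widely, more of them upward.

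The 2 tables differed for many members, and 0 in the second table was most frequent among short and nested genes. Rprl3, with 290 bases and not nested, was also at 0 there. On log2(TPM + 1), 38 of 62 members were more than 2-fold apart in at least 1 library, against 5.33% of genes with a mean of 1 TPM or more in the gene table. On counts scaled to the same total, with the same pseudocount of 1, only 4 of 62 were that far apart, since most members then lie near or below the pseudocount. There were 28 members (45.2%) at 0 in both libraries of the second table, against 3.05% of those genes. Because the members were chosen on the gene table, a higher value there is partly the choice. Among single-transcript members, 23 of 24 under 200 bases were at 0 in the second table, against 5 of 34 of 200 bases or more. Of those contained in a longer transcript it was 15 of 16, against 13 of 42 of those not contained.

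The highest log2 ratios of gene table over second table, averaged over both libraries, were 10.3 for the ribozyme model of Rmrp, 9.38 for Rprl3 and 6.72 for Gm27627, all at 0 in the second table. With both models of Rmrp summed, the ratio was -0.33, the other direction. The lowest were -1.36 for Rn7s6, -0.92 for Gm23553 and -0.89 for Gm26315. For the 7SL pair the ratio was -0.30, for Rn7sk -0.49 and for Rpph1 -0.19. Applied to the second table, the same TPM rule chose 44 genes, of which 23 were members (52.3% of the 44 and 37.1% of the 62). The other 21 had means of at most 7.88 TPM in the second table, and 14 of them were at 0 in the gene table.

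**Figure D4:**
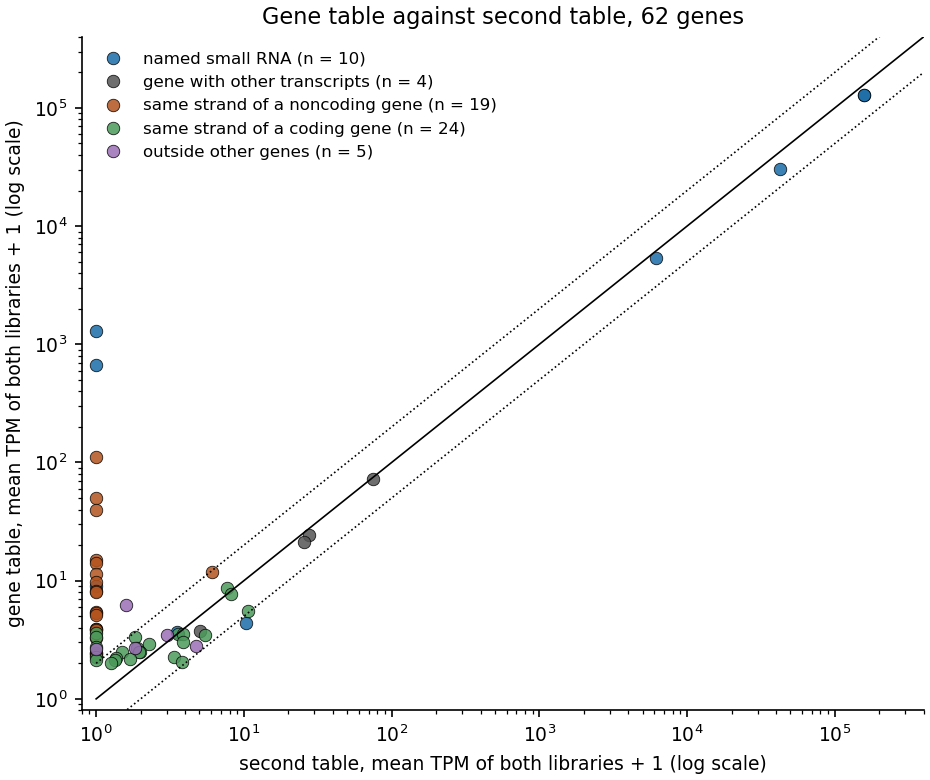
Mean TPM + 1 over both libraries in the gene table against the second table (both log scales) for the 62 members, 1 point per gene, coloured by group, with a solid line of equality and dotted lines at 2-fold. The 28 members at 0 in the second table form the column at the left, and the 7SL pair, Rn7sk and Rpph1 lie near the line at the upper right.

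The proteins that work with these RNAs were measured as ordinary messenger RNAs, from lists of known partners. Of the 10 signal recognition particle and receptor genes found, all were above 1 TPM in both libraries, from Srp14 at 89.7 and 89.5 TPM to Srprb, a receptor subunit, at 11.2 and 10.3 TPM. The 7 genes of the 7SK particle and P-TEFb ranged from the kinase Cdk9 at 63.2 and 46.0 TPM to Hexim2, an inhibitor of it, at 5.02 and 9.31 TPM. The 11 RNase P and RNase MRP protein genes ranged from Pop5 at 51.2 and 42.0 TPM to Rpp40 at 4.35 and 4.32 TPM. Ssb, the La protein, had 52.5 and 60.2 TPM, and Trove2, the Ro60 gene, had 16.6 and 11.9 TPM.

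The vault proteins were low, from Mvp, the major one, at 6.23 and 5.01 TPM to Tep1 at 2.49 and 1.18 TPM. Among telomerase and H/ACA protein genes, Nop10 was highest at 21.8 and 22.0 TPM and Tert, the catalytic subunit, lowest at 2.59 and 1.65 TPM. Among RNA polymerase III subunits, Polr3g was lowest at 2.75 and 1.85 TPM. The factors of the snRNA-type promoter ranged from Snapc4 at 42.4 and 30.0 TPM to Snapc5 at 8.24 and 7.22 TPM. In these 8 partner lists 0 of 55 tested genes passed edgeR's test between the libraries, against the 0.806% of all genes. At an unadjusted p under 0.05 from edgeR it was 1 of 55, against 778 of 16123 tested genes. The list medians of the log2 ratio ran from -0.06 to 0.21.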

How the data were processed

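Total RNA of the hippocampus was sequenced as 1 library per animal in 2 mice. Per the file headers, the authors used mm10 and GENCODE M21; the column names are those of RSEM for the gene table and first transcript table and of kallisto for the second transcript table, while program versions were not given in the sources used here. Expected counts, as deposited, are the program's estimates of reads per gene after dividing shared reads. TPM values, as deposited, are scaled to the same sum in every library. Percent values, as deposited, say how much of a gene's TPM a transcript took. The deposited signal columns, credible bounds of TPM, were not used for any statement. The second table's deposited estimated counts and TPM were summed per gene. Totals were 23458117 and 29584307 expected counts, and 25213972 and 31237997 estimated counts in the second table. The files hold no molecular identifiers, so several reads may come from 1 molecule, and Wilson intervals and limits at 0 cover counting error only.

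Expected counts were rounded and fitted with edgeR 4.0.16 (R 4.3.3), with TMM scaling, CPM of 1 or more in at least 1 library, an intercept alone and a prior count of 2; the residual deviance at the trended dispersion was compared with a chi-square distribution of 1 degree of freedom. The test was checked on simulated data. DESeq2 1.42.0 size factors, spike-in and total scaling, no filter, the second table and a common dispersion were alternatives. Sequences were matched with blastn 2.17.0 (aligned over 50% or more of the shorter, identity of 75% or more). The genes named in the text were those with an RNA or gene name, the 10 highest, the 3 at each end of the table ratio, the 3 on each side of the threshold, and the ends of each partner list with any called; Gm27998, Gm27404, Gm24146, Gm26035, Gm26461, Gm26407 and RF01953 were named after their values were seen. Of 59 partner symbols, 4 had no match in the gene table. Some items that these rules name are not reported here. Members and gene lists were chosen with earlier results of these data known. The replicates are separate animals by their numbers, although both share a donor entry.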

Additional observations from a re-analysis of the deposited data

How the results depend on the processing

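The number of members was 62, and it was 23 at a mean of 5 TPM or more, 41 at 1 TPM or more in each library, and 34 with 10 or more summed counts, a minimum chosen after seeing the data; single libraries gave 46 to 67. The mean share of TPM, 29.6%, was 36.6% in the second table and 23.5% with full annotated lengths, and 28.5 to 30.6% in single libraries. The mean share of expected counts, 3.76%, was 2.39% in the second table and 3.51 to 4.02% in single libraries. Members called between the libraries were 0 under every scaling, filter, table and dispersion tried. At an unadjusted p under 0.05 there were 0 to 2 members of 8 to 14 tested, and 7 of 62 without the filter. In the main fit 778 of 16123 genes were under that limit. The share over all genes was not counted for the other fits. The 7 of 62, from a fit of 26849 genes, therefore has no background of its own. The calls over all genes were 130, against 94 to 135 except for 341 with a common dispersion. Of 75 alternative log2 ratios of single members 7 had the other sign, and none with a test passed the threshold: Rn7sk at 0.13, Rprl3 at 0.17 and Nbr1 at 0.21 under spike-in scaling, Nbr1 at 0.00040 under total scaling, Rmrp at -0.21 with both models summed, and Rpph1 at -0.027 without the filter and -0.046 in the second table. Members within 2-fold between libraries were 31, and 16 of the 34 above 0 in the second table. Members within 2-fold between the tables were 24, but 58 on counts scaled to the same total; single libraries gave 29 to 37. The causes were not tested. No paired analysis was possible because the labels give 1 group. In all, 28 of 62 members had under 10 expected counts, and several of these also had short effective lengths.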
